A study of Mus musculus with 6 samples.

Results

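The regions described here are stretches of CTCF signal that fell inside 4 intervals of the mouse genome chosen for their large olfactory receptor gene clusters. CTCF is a zinc-finger protein that occupies a long DNA motif and anchors chromatin loops. The peaks of the 6 deposited lists were merged wherever they overlapped by at least 1 bp, and the merged regions that overlapped any of 4 intervals were kept. One interval was on chromosome 2 (85100000 to 90000000) and one on chromosome 9 (37500000 to 40200000). The other two were on chromosome 7, a proximal cluster (102200000 to 104600000) and a distal one (106200000 to 108100000), all in mm39. Together they span 11.9 Mb. They held 315 of the 94951 regions of the series, which is 0.332%. The 5 Mb on each side of each cluster, without the other cluster, made up 31.6 Mb of flanks with 1454 regions.

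Binding was profiled by CUT&RUN, in which an antibody guides a nuclease to the bound protein and the released DNA is sequenced, in regulatory T cells of the mouse thymus. Regulatory T cells are the lymphocytes that restrain immune responses. There were 3 libraries of wild-type (WT) cells and 3 of Cgas knockout (Cgas_KO) cells, which lack the cytosolic DNA sensor cGAS. The labels give no treatment, age or strain for either genotype and do not state whether the replicates were separate animals. The p-values therefore reflect the spread among these libraries alone, which may be technical.

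Olfactory receptors are the odorant-binding receptors of sensory neurons in the nose. Their genes lie in tandem in long clusters, and each sensory neuron expresses one of them while the rest are held in heterochromatin. Other cell types, lymphocytes among them, generally leave the clusters silent. Whether they were silent in these cells was not measured here, and the genes inside the mm39 intervals were not analysed here, because the available gene table belongs to GRCm38.p6. The interval edges are therefore approximate. In the gene order of that table, chromosome 2 carries 287 olfactory receptor genes among 1782 protein-coding genes, and 123 of them follow one another without another protein-coding gene between them, up to Ptprj. Chromosome 7 carries 239 and chromosome 9 carries 130, with longest unbroken runs of 42 and 40. The run of 42 lies between Ovch2 and Nlrp10 and that of 40 between Panx3 and Vwa5a. On chromosome 7, the 5 beta-globin genes from Hbb-bt to Hbb-y sit between the receptor genes Olfr67 and Olfr66. The intervals, called clusters below, may thus hold other genes too, and the regions were not assigned to genes.

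The promoters of the receptor genes of these chromosomes were poorer in GC and CpG than protein-coding promoters as a whole. Other gene families were not compared. RefSeq sequences of 300 bases around the gene start, from GRCm38.p6, were at hand for 561 of the 656 receptor genes of chromosomes 2, 7 and 9, and for 79.9% of all protein-coding genes. The median GC content was 34.3% in the receptor promoters and 56.3% in all promoters. The median number of CpG dinucleotides was 1 against 13. These promoters were not placed on the peaks, because the builds differ. Many receptor genes resemble one another, and the sources used here do not give how reads that fit several places were treated.

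The 6 lists held 27128 to 31707 peaks on chromosomes 1 to 19, X and Y, with median widths of 2569 to 3607 bp. The most and the narrowest peaks were those of Cgas_KO replicate 3. Peak height, the maximum signal of a peak as the authors gave it, came in whole multiples of a smallest step in each list and is counted in steps here. Median heights of the lists were 11 to 14 steps. Read depth is unknown and no counting interval could be given.

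CTCF peaks were sparse in the olfactory receptor clusters. WT replicates 1, 2 and 3 had 5.21, 6.30 and 5.88 peaks per Mb there, and Cgas_KO replicates 1, 2 and 3 had 6.13, 5.13 and 6.39. The flanks of the same lists held 15.2, 15.4 and 14.2 peaks per Mb in WT and 16.4, 14.8 and 17.7 in Cgas_KO. Every library was thus lower in the clusters, and the 2 sets of values were far apart. Density was 5.84 ± 0.549 peaks per Mb in the clusters and 15.6 ± 1.26 in the flanks (SD, n = 6), a log2 ratio of -1.42 ± 0.118, or 2.68-fold lower (two-sided exact sign-flip permutation test over libraries, p = 0.0312, Benjamini-Hochberg adjusted 0.0481). That p is the smallest 6 libraries can give, and the adjustment covered 20 tests, of which 13 passed 0.05, each at this smallest p. The libraries share one genome, so the test compares these stretches of sequence and says nothing of receptor clusters elsewhere.

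Peaks covered 2.04% ± 0.252 of the cluster sequence and 5.31% ± 0.276 of the flanks (SD, n = 6), a log2 ratio of -1.39 ± 0.154 that was lower in 6 of 6 libraries (exact sign-flip permutation p = 0.0312, adjusted 0.0481). A list placed 61 to 76 of its peaks in the clusters, 0.217% to 0.259% of the list, while the clusters make up 0.437% of the sequence up to the last peak of each chromosome. The flanks make up 1.16% of it and received 1.65% to 1.77% of the peaks.

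The flanks were themselves richer in peaks than most of the genome. All sequence outside clusters and flanks had 10.5 ± 0.615 peaks per Mb (SD, n = 6). Against this rest, a comparison added after the data were examined, the clusters were 1.81-fold lower and the flanks 1.48-fold higher, each in 6 of 6 libraries (exact sign-flip permutation p = 0.0312 for both). The 2.68-fold difference thus holds both parts. In bins of 1 Mb, the 8 bins wholly inside the clusters had 2.83 to 9.33 peaks on average over the 6 lists, with a median of 5.08. The median was 8.67 over the 2564 full bins that held a peak in any list, as bins without peaks were left out. The cluster bins stood at percentiles 4.02 to 53.0 of these 2564. The emptiest were thus among the sparse ones and the fullest, on distal chromosome 7, was an ordinary one.

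**Figure D1:**
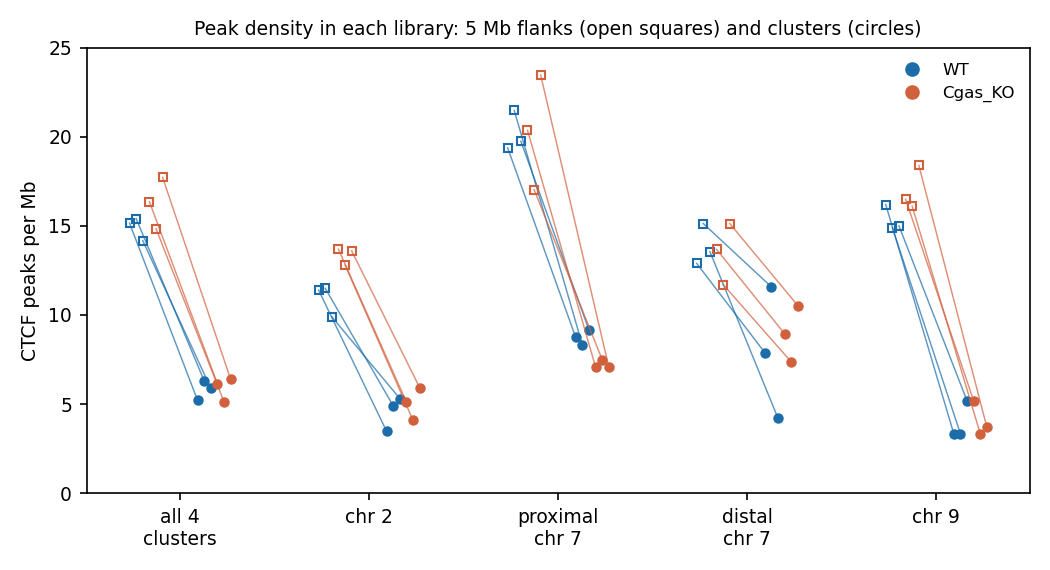
CTCF peaks per Mb in each library, for the 4 clusters together and for each cluster, with open squares for the 5 Mb flanks and circles for the cluster of the same library, joined by a line and coloured by genotype. All 6 lines fall in every panel position, from flank means of 15.6 to cluster means of 5.84 peaks per Mb for the clusters together.

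The chromosome 9 cluster had the lowest mean density. It held 4.01 ± 0.920 peaks per Mb against 16.2 ± 1.27 in its own flanks (SD, n = 6), 4.11-fold lower. The chromosome 2 cluster, the longest at 4.9 Mb, held 4.80 ± 0.883 against 12.2 ± 1.48, 2.56-fold lower. The proximal chromosome 7 cluster held 7.99 ± 0.890 against 20.2 ± 2.15, 2.54-fold lower. The distal one held 8.42 ± 2.60 against 13.7 ± 1.32, 1.70-fold lower. Each of these differences was seen in 6 of 6 libraries (exact sign-flip permutation p = 0.0312, adjusted 0.0481 each). These values are for whole intervals, and the part of each interval that holds receptor genes was not determined.

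The order of the clusters was not resolved, since none of the 6 pairs passed after adjustment. The log2 ratio on chromosome 9 was lower than that on chromosome 2 by 0.684 ± 0.302 and lower than that of proximal chromosome 7 by 0.695 ± 0.386, in 6 of 6 libraries each (SD, n = 6; exact sign-flip permutation p = 0.0312), but the adjusted p was 0.0938 for both. The widest gap was between chromosome 9 and distal chromosome 7, at 1.27 ± 0.748, with 1 library the other way (SD, n = 6; exact sign-flip permutation p = 0.0625, adjusted 0.125). The distal chromosome 7 ratio was above that of chromosome 2 and that of proximal chromosome 7 in 5 of 6 libraries each (exact sign-flip permutation p = 0.0938 and 0.125, adjusted 0.141 and 0.15, n = 6). The chromosome 2 and proximal chromosome 7 ratios differed by -0.0109 ± 0.422 (exact sign-flip permutation p = 0.969, n = 6). The distal chromosome 7 ratio varied most between libraries, through WT replicate 3, which had 8 peaks in that cluster where the others had 14 to 22. Without that library the mean log2 ratio of the distal cluster was -0.580 in place of -0.764.

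Flank segments differed as well. The least dense was the left flank of chromosome 2, with 8.47 ± 1.15 peaks per Mb, and the densest the left flank of proximal chromosome 7, with 25.9 ± 2.96 (SD, n = 6). The 1.6 Mb between the chromosome 7 clusters had 12.5 ± 4.29. The left flank of chromosome 2 held 6.6 to 10.2 peaks per Mb and the cluster beside it 3.47 to 5.92, so the values of even this sparse flank lay above all those of its cluster. On chromosome 7 this was not so for every segment, since the proximal cluster reached 9.17 and the distal one 11.6 peaks per Mb, above the lowest value of the segment between them, 8.13, and the distal one also above the lowest of its right flank, 10.2.

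Mean density was lower in every bin inside the edges, which are approximate, than in every bin outside. The flank bins had means of 11.7 to 21.7 peaks per Mb, a range that includes the last bin outside. Moving in along both sides of the clusters in steps of 250 kb, the mean over the 6 libraries was 18.3 ± 1.97 peaks per Mb in the bin from 500 to 250 kb outside and 12.1 ± 1.93 in the last bin outside. It was 7.58 ± 0.665 in the first bin inside and 4.42 ± 1.59 in the second (SD, n = 6). Further in, the bins ranged from 4 to 7.67 with no fall toward the middle. The innermost bins, beyond 1500 kb, rest on 0.5 Mb or less of chromosome 2.

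**Figure D2:**
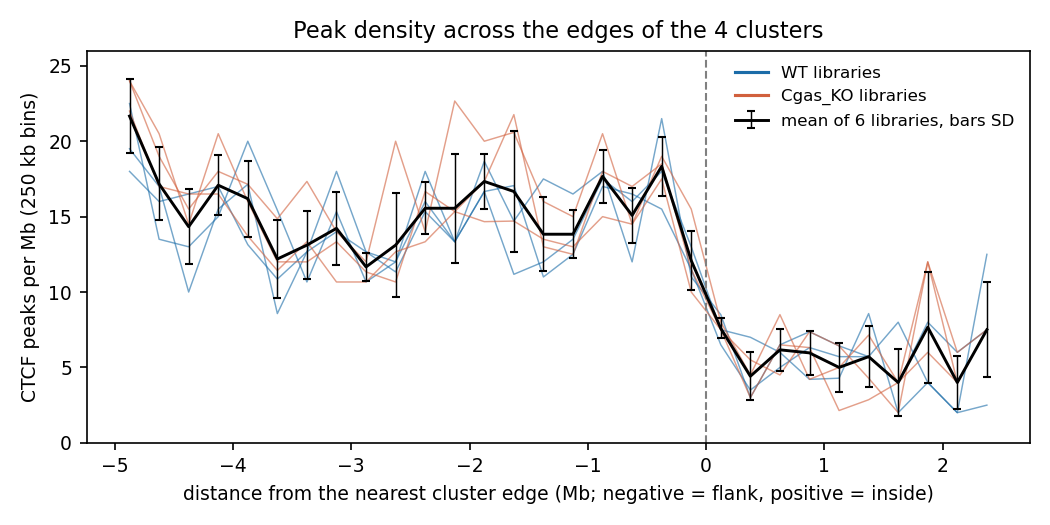
CTCF peaks per Mb in bins of 250 kb against the distance from the nearest cluster edge in Mb, flank on the left of the dashed line and cluster on the right. Thin lines are the 6 libraries by genotype and the black line with bars is their mean and SD. The mean is 11.7 to 21.7 in the flank bins and 4 to 7.67 in the bins inside.

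Most peaks in the clusters were not found again in another library. Of the 315 regions, 264 were called in 1 list only, 29 in 2 lists, 9 in 3, 5 in 4, 3 in 5 and 5 in all 6. Regions of a single list made up 83.8% of the cluster regions, 63.2% of the flank regions and 69.9% of all regions. Those of all 6 lists made up 1.59%, 6.74% and 5.16%. Each list contributed 37 to 51 of the 264 regions called once. Of these 264, WT lists held 134 and Cgas_KO lists 130. Regions called once were 394 in WT and 525 in Cgas_KO lists in the flanks, and 30194 and 36172 over the whole series. The balance between genotypes was not tested.

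The gap between clusters and flanks widened with support. Regions called once were 22.2 per Mb in the clusters and 29.1 in the flanks, 1.31-fold fewer, and 24.4 over the whole sequence. Regions of 2 lists were 2.77-fold fewer than in the flanks, those of 3 lists 3.89-fold, of 4 lists 5.80-fold, of 5 lists 6.78-fold and of all 6 lists 7.38-fold. The last of these folds rests on 5 cluster regions against 98 flank regions. These counts come from 1 merged set, so they have no replicate error. Overlap by chance at 1 bp is likelier where peaks are dense, and its part in these folds was not tested.

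The split of these same merged regions also showed within each library, which adds no independent evidence. Among the peaks of a list, 59.7% to 72.9% of those in the clusters lay in regions of that list alone, against 25.9% to 38.2% in the flanks and 35.4% to 43.8% in the whole list, with no overlap between clusters and flanks. Counted over regions of 1 list, an alternative added after the data were examined, peaks were 3.70 ± 0.454 per Mb in the clusters and 4.85 ± 1.08 in the flanks (SD, n = 6), lower in 5 of 6 libraries (exact sign-flip permutation p = 0.0625). Counted over regions of at least 2 lists they were 2.14 ± 0.343 against 10.8 ± 0.388, 5.08-fold lower in 6 of 6 libraries (exact sign-flip permutation p = 0.0312, n = 6). Peaks of both kinds were thus less dense in the clusters on average, those of a single list by less, and the 2 kinds were not tested against each other. The number of lists came from these same 6 lists, and a shared region counts in each of its libraries. The 6 values are therefore not independent, and the p-values of this split are descriptive only.

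**Figure D3:**
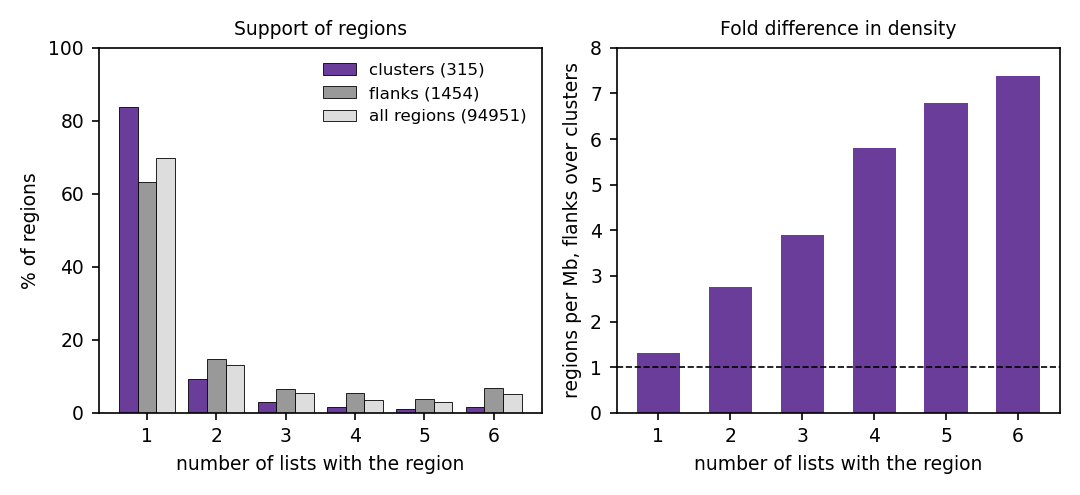
Left, percent of the regions in the clusters, the flanks and the whole series that were called in 1 to 6 lists. Right, regions per Mb in the flanks over those in the clusters for each number of lists, which rises from 1.31 for regions of 1 list to 7.38 for regions of all 6, with a dashed line at equal density.

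Peaks in the clusters were also low. Their median height was 12, 11 and 11 steps in WT replicates 1, 2 and 3 and 12, 12 and 10 in Cgas_KO replicates 1, 2 and 3. In the flanks it was 16, 14 and 15 in WT and 14, 14 and 11 in Cgas_KO. Each library was lower in the clusters, while values of different libraries overlapped. The log2 ratio was -0.30 ± 0.123 (SD, n = 6), 1.23-fold lower, in 6 of 6 libraries (exact sign-flip permutation p = 0.0312, adjusted 0.0481). Against the rest of the genome it was -0.20 ± 0.0554, again lower in 6 of 6 (exact sign-flip permutation p = 0.0312, n = 6).

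By cluster, the height difference passed the test on chromosomes 2 and 9 only. The log2 ratio was -0.39 ± 0.149 on chromosome 2 and -0.31 ± 0.110 on chromosome 9, lower in 6 of 6 libraries each (SD, n = 6; exact sign-flip permutation p = 0.0312, adjusted 0.0481). It was -0.20 ± 0.205 in the proximal and -0.17 ± 0.123 in the distal chromosome 7 cluster, lower in 5 of 6 libraries each (SD, n = 6; exact sign-flip permutation p = 0.0625, adjusted 0.0833). In Cgas_KO replicate 1 the proximal cluster stood above its flanks, at 15 against 14 steps, and in WT replicate 3 the distal cluster equalled them at 13. Whether the clusters differed from one another in this ratio was not tested.

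Over all clusters, part of the height difference moved with support. Among peaks of regions of 1 list, the median was 10.5 ± 1 steps in the clusters and 11.3 ± 0.987 in the flanks (SD, n = 6), a log2 ratio of -0.10 ± 0.0386 that was lower in 6 of 6 libraries (exact sign-flip permutation p = 0.0312). Among peaks of regions of at least 2 lists it was 14.7 ± 2.50 against 16.2 ± 2.23 (log2 ratio -0.15 ± 0.110, lower in 5 and equal in 1 of 6 libraries, exact sign-flip permutation p = 0.0625, n = 6). Both are smaller than the difference over all peaks. As the number of lists came from the same 6 lists, these p-values too are descriptive only.

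Tall peaks were few. The clusters of WT replicates 1, 2 and 3 had 0, 1 and 1 peaks that reached 3 times the median of the list, and those of Cgas_KO replicates had 0, 0 and 1, which is at most 1.43% of the cluster peaks of a list. The flanks held 38, 33 and 41 in WT and 14, 16 and 14 in Cgas_KO, which is 6.78% to 9.15% of the flank peaks in WT and 2.50% to 3.41% in Cgas_KO. The clusters were thus below the flanks in every library, by less in Cgas_KO, where tall peaks were scarce in the flanks too. With 61 to 76 cluster peaks in a list, these shares rest on 0 or 1 peak. The tallest cluster peak of a library stood 29 to 46 steps high. In the flanks the tallest was 44886 to 67467 steps, all of them a single site on chromosome 9 that medians are not sensitive to. Whether signal of that height reflects CTCF binding was not tested.

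Width, in contrast, differed little. Median widths in the clusters were 3562, 3270 and 3893 bp in WT and 3479, 3773 and 2506 bp in Cgas_KO, against 3448, 3054 and 3576 bp and 3172, 3338 and 2633 bp in the flanks. Cluster peaks were wider in 5 of 6 libraries, with Cgas_KO replicate 3 the exception. The log2 ratio of 0.0845 ± 0.0874 did not pass the test (SD, n = 6; exact sign-flip permutation p = 0.0938, adjusted 0.104). Among peaks of regions of 1 list the ratio was 0.0979 ± 0.0650, with wider peaks in the clusters in 6 of 6 libraries (exact sign-flip permutation p = 0.0312, n = 6). This p-value is descriptive only, since the other lists decided which peaks were kept. The widest cluster peak in WT was 7099 bp, on chromosome 7 from 104419652 to 104426750, and the widest in Cgas_KO was 10127 bp, on chromosome 7 from 103960652 to 103970778.

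**Figure D4:**
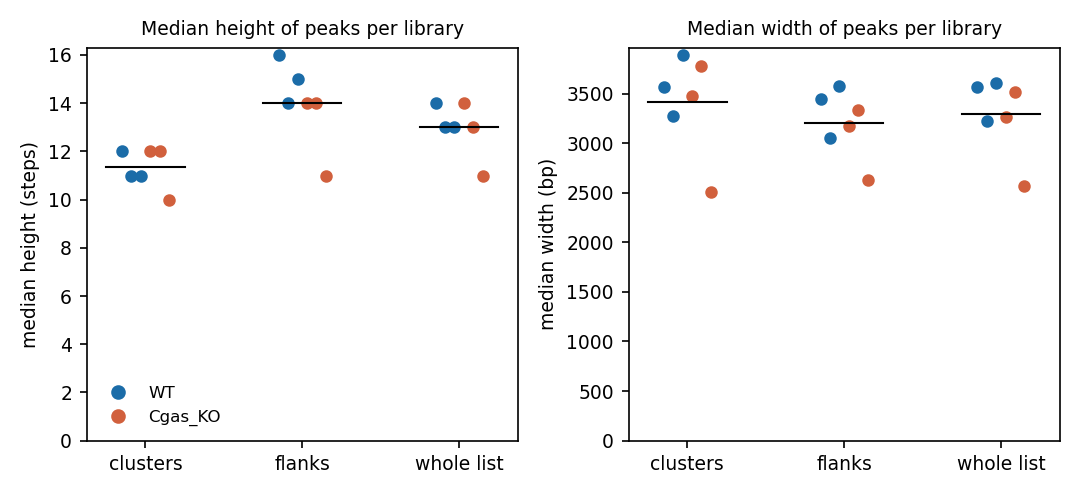
Median height in steps (left) and median width in bp (right) of the peaks in the clusters, the flanks and the whole list, 1 point per library coloured by genotype, with the mean of the 6 libraries as a line. Cluster medians lie between 10 and 12 steps and flank medians between 11 and 16, while widths overlap.

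The few regions called in all 6 lists all lay on chromosome 7. The chromosome 2 cluster had none over its 4.9 Mb and the chromosome 9 cluster none over its 2.7 Mb. The proximal chromosome 7 cluster had none over its first 1.89 Mb, from 102200000 to 104093104, and the distal one none over its first 1.06 Mb, from 106200000 to 107256776. Regions of at least 2 lists were missing from 1.31 Mb of chromosome 2, from 85678630 to 86992771, and from 1.38 Mb of chromosome 9, from 38754653 to 40138914. The longest stretch without a peak in any list was far shorter, 240 kb in the chromosome 2 cluster (88254795 to 88494631), 222 kb on chromosome 9 (37570113 to 37792072), 181 kb in the proximal (103103757 to 103284673) and 99.1 kb in the distal chromosome 7 cluster (106282176 to 106381265).

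The strongest of the 5 lay in the proximal cluster, on chromosome 7 from 104093105 to 104097971. It was 32, 46 and 45 steps high in WT replicates 1, 2 and 3 and 22, 35 and 33 in Cgas_KO replicates 1, 2 and 3, at percentile 93.2 ± 4.73 of height within the lists (SD, n = 6). It was the tallest cluster peak of 4 libraries, and the genotypes overlapped. The other region of this cluster, from 104418492 to 104426750, was 17, 14 and 29 steps high in WT and 14, 24 and 16 in Cgas_KO, at percentile 72.4 ± 15.9.

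The other 3 stood close together in the distal cluster, 1.06 to 1.15 Mb from its left edge. Whether receptor genes or other genes of the interval lie around these 3 was not determined. The region from 107256777 to 107263048 was the most even of the 5, at 30, 25 and 26 steps in the WT libraries and 29, 22 and 22 in Cgas_KO (percentile 88.3 ± 4.31, SD, n = 6). The next, from 107304899 to 107309903, was 21, 13 and 17 steps high in WT and 19, 18 and 10 in Cgas_KO. The last, from 107345733 to 107350065, was 16, 32 and 22 steps high in WT and 22, 16 and 10 in Cgas_KO. In each of these the genotypes overlapped.

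The regions of 5 lists, named because they are so few, were 3. On proximal chromosome 7 the region from 103451723 to 103457855 was 20, 22 and 23 steps high in WT and 14 and 18 in Cgas_KO replicates 1 and 2. The region from 103875469 to 103882609 was 22 and 14 steps high in WT replicates 1 and 2 and 15, 8 and 10 in Cgas_KO. The only such region on chromosome 9, from 38749457 to 38754652, was 21, 19 and 17 steps high in WT and 21 and 13 in Cgas_KO replicates 1 and 3. It stood 1.25 Mb inside its cluster, at the start of the stretch without regions of at least 2 lists. The 2 other chromosome 9 regions of at least 4 lists had their midpoints 26.9 and 68.0 kb from the left edge. Among regions of 4 lists, 1 more was chosen for its height after the values were seen, on chromosome 7 from 103848321 to 103850610, at 36, 27 and 37 steps in WT and 23 in Cgas_KO replicate 1.

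**Figure D5:**
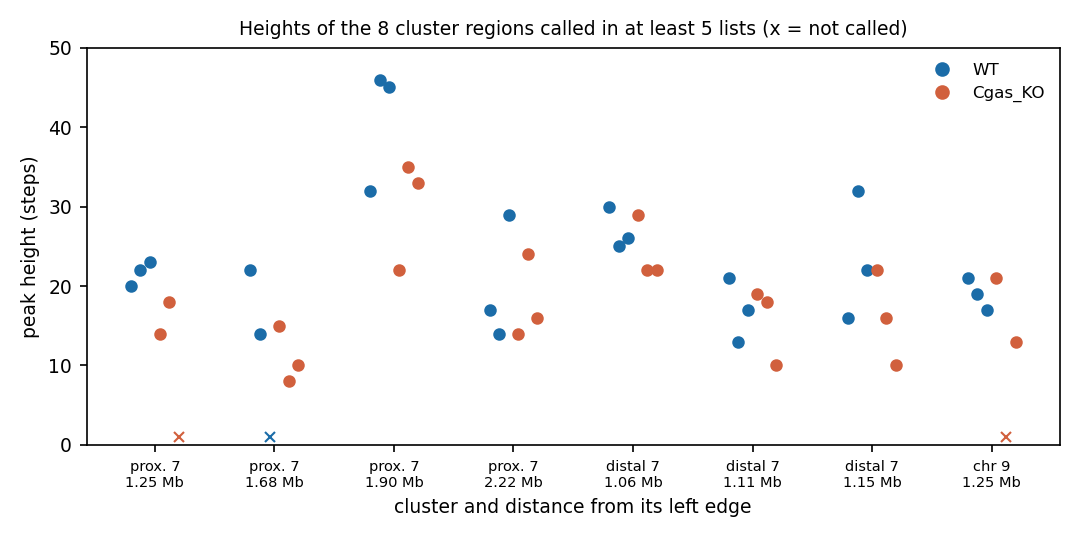
Peak height in steps, per library and coloured by genotype, of the 8 cluster regions called in at least 5 lists, labelled by cluster and distance from its left edge in Mb, with a cross where a library had no peak. The region 1.90 Mb into the proximal chromosome 7 cluster is the tallest, at 22 to 46 steps, and 7 of the 8 lie on chromosome 7.

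No difference in sparseness between WT and Cgas_KO lists passed the test. For peak density, the log2 ratio of clusters over flanks came to -1.37 ± 0.151 in WT libraries and to -1.47 ± 0.0593 in Cgas_KO libraries (SD, n = 3; two-sided exact permutation test, p = 0.4, adjusted 0.889). That of covered share was -1.33 ± 0.149 and -1.45 ± 0.156 (exact permutation p = 0.3, adjusted 0.75, n = 3). In the clusters themselves, WT lists had 5.80 ± 0.551 and Cgas_KO lists 5.88 ± 0.667 peaks per Mb (SD, n = 3). With 3 libraries against 3 no p can be below 0.1, so the design cannot pass 0.05.

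Of the 4 measures over all clusters, the height ratio alone did not overlap between genotypes. On the log2 scale this ratio stood at -0.40 ± 0.0508 for WT and -0.19 ± 0.0490 for Cgas_KO (SD, n = 3; exact permutation p = 0.1, adjusted 0.75). Of the 20 genotype comparisons, 2 did not overlap, this one and height on chromosome 2 (-0.50 ± 0.0562 in WT, -0.28 ± 0.121 in Cgas_KO). With no difference, 3 against 3 libraries separate with a chance of 0.1. The height ratios of the other clusters overlapped, and on chromosome 9 it was lower in Cgas_KO, by 0.046. The cluster medians were the same on average, 11.3 ± 0.577 steps in WT and 11.3 ± 1.15 in Cgas_KO, and the flank medians were 14 to 16 steps in WT and 11 to 14 in Cgas_KO. Over whole lists, peaks at 3 times the median or more were 5.67% to 6.96% of the peaks in WT and 2.27% to 3.45% in Cgas_KO, and a step was worth 0.190 to 0.212 signal units in WT and 0.117 to 0.120 in Cgas_KO. The part of these list-wide differences in the ratio was not tested. With total signal in place of height, the genotype difference over all clusters shrank from 0.209 to 0.0385 (exact permutation p = 0.5, n = 3).

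Single regions gave no call between genotypes. The 5 regions of all 6 lists were tested with limma on normal scores of ranks within the 4896 such regions of the series, where 0 passed an adjusted p of 0.05 (0% of all tested) and 461 had an unadjusted p under 0.05 (9.42%). None of the 5 was under 0.05 in this fit. The smallest p was at the even region from 107256777, higher in Cgas_KO by a score of 0.36 (SE 0.24, limma adjusted p = 0.653), followed among the higher ones by that from 104418492, at 0.29 (SE 0.49, limma adjusted p = 0.876). The only lower one was that from 107345733, at -0.39 (SE 0.49, limma adjusted p = 0.825). Of the 5, 0 had ranks that did not overlap between genotypes, against 8.76% higher and 7.68% lower in Cgas_KO over all regions tested.

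Among the 9 cluster regions of exactly 3 lists, 1 was in the 3 WT lists alone and 1 in the 3 Cgas_KO lists alone, where over all such regions 6.98% were WT-only and 6.1% Cgas_KO-only. The WT-only region, on chromosome 7 from 102332838 to 102338398, was 16, 17 and 12 steps high (percentile 56.5 ± 15.7, SD, n = 3). The Cgas_KO-only region, on chromosome 2 from 88194472 to 88199522, was 8, 15 and 11 steps high (percentile 39.0 ± 31.7, SD, n = 3). With 3 libraries against 3, an exact test of presence cannot go below p = 0.1.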

How the data were processed

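CTCF CUT&RUN peak lists of thymic regulatory T cells, 1 per library, fell into 2 groups of 3 by the labelled genotype. Bowtie2 and SEACR 1.3 were used, per the submitters' processing notes. The sources used here do not give the peak threshold, the control library or the scaling. Each deposited peak, called by the authors in 1 library, carries its total and its maximum signal. The notes list mm10 and mm39, and the lists carry mm39 sequence names. Positions count from 1. Maximum signal under 200 steps was a whole multiple of 1 step within 0.01 step for 100% of peaks.

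A peak belonged to a cluster if it overlapped it, and to a flank if it overlapped that and no cluster. Clusters and flanks were compared within each library by a two-sided exact sign-flip permutation test of log2 ratios over 6 libraries, and genotypes by a two-sided exact permutation test of 3 against 3, each Benjamini-Hochberg adjusted over 20 tests. Relative height was tested with limma 3.58.1 (R 4.3.3) over all regions in all 6 lists. The scripts were tested on simulated data. Python 3.11.15, numpy 2.4.6 and pandas 2.3.3 were used. Depth is unknown and 3 libraries per group limit precision.

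The clusters, lists and tests were chosen with earlier results of these data known. Regions named were the 3 highest by percentile of height per cluster among those in all 6 lists, all WT-only and Cgas_KO-only ones, the 2 smallest limma p per direction, the widest peak per genotype and the longest stretch per cluster without a region in all 6 lists. Others were named after their values were seen. As alternatives, all lists were cut to the length of the shortest (27128 peaks), and the others were the top 50% by total signal, midpoints, 2 Mb flanks, edges shortened by 200 kb, 50% coverage, merging within 500 bp, fewer lists, log2 values, total signal, leaving out each cluster or library, and a replicate block.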

Additional observations from a re-analysis of the deposited data

Results flagged for a closer look

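In the distal chromosome 7 cluster, WT replicate 3 stood apart from the other 5 libraries, by more than Dixon's 95% limit for 6 values. Its log2 ratio of peak density, cluster over flanks, was -1.69, where the others lay between -0.71 and -0.39. Its log2 ratio of covered share was -1.80, against -0.69 to -0.26. Both values rest on the same 8 peaks, and 20 sets of 6 values were examined, of which chance flags about 1 in 20.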

How the results depend on the processing

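The lower density, covered share and height of the clusters kept their direction in all alternatives run. They passed an unadjusted exact p of 0.05 in all planned ones that kept 6 libraries, with log2 ratios of -1.93 to -1.27, -1.91 to -1.22 and -0.43 to -0.24. Total signal, put in place of height, passed too, at a smaller ratio of -0.10. With 5 libraries the smallest p is 0.0625, so none could pass. The log2 ratios were then -1.45 to -1.40 for density, -1.42 to -1.35 for covered share and -0.33 to -0.27 for height. Over regions of 1 list, density (-0.37) and covered share (-0.28) no longer passed, nor did height over regions of at least 2 lists (-0.15). Width passed with lists matched to the shortest (0.10) and over regions of 1 list (0.098). The cause was not tested. Results split by number of lists are descriptive only, since that number came from the same 6 lists.

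Between genotypes, the density ratio reversed to 0.29 and the covered share ratio to 0.15 in the top 50% of each list. The width ratio was -0.058 to 0.066 with a library left out and reversed without WT replicate 3 (0.0070) or Cgas_KO replicate 3 (0.066). Regions in all 6 lists numbered 0 in the clusters and 6 in the flanks at 50% coverage, 1 and 61 in the top 50%, 8 and 152 with 5 lists, and 5 to 6 and 105 to 111 with a library left out. WT-only and Cgas_KO-only cluster regions numbered 0 and 0 at 50% coverage, 6 and 8 with 2 of 3 lists, and 1 to 4 and 1 to 5 with a library left out, which asks for fewer lists. The 6 and 8 include 5 and 7 of the 29 cluster regions of exactly 2 lists. Over the series, 2510 and 2785 of 12441 such regions were of 1 genotype alone, beside 358 and 313 regions in all 3 lists of 1 genotype alone. Shares over all regions are not given here for the other settings. Limma called 1 region of the series on the log2 scale, outside the clusters. At the region from 104093105 the difference reversed with total signal (-0.22), on the log2 scale (-0.067) and, over -0.22 to 0.41, with some libraries left out. That from 107304899 reversed with total signal (-0.053) and, over -0.044 to 0.51, with some libraries left out.

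Same-numbered libraries did not deviate together (correlations of -0.017 to -0.013 over regions), so the numbers were not taken as pairs. With the replicate block, limma gave 0 calls and the density ratio differed by -0.11 (exact sign-flip p = 0.5, smallest possible 0.25). The replicate block changed no call.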
